A study of Mus musculus with 19 samples.

Results

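The genes described here encode the mitogen-activated protein (MAP) kinase cascade and the dual-specificity phosphatases. They were found by symbol: Mapk followed by a digit, Mapkapk, Map2k, Map3k or Map4k followed by a digit, and Dusp followed by a digit. In all, 49 of the 9834 genes with a single symbol matched, read by 67 of the 20205 probes. They comprised 3 MAP4K, 9 MAP3K, 4 MAP2K, 8 MAPK and 3 MAPKAPK genes, 5 genes of binding partners and scaffolds (Map3k7cl, Mapk1ip1l, Mapk8ip1, Mapk8ip2 and Mapk8ip3) and 17 Dusp genes. Of the Dusp genes, 5 encode typical MAP kinase phosphatases (Dusp1, Dusp2, Dusp4, Dusp8 and Dusp10) and 12 encode other or atypical members. Mapk3 and Dusp6 had no probe with that single symbol in the probe annotation and were not analysed here.

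MAP kinase signalling passes through tiers of kinases that phosphorylate each other in turn. MAP4K and MAP3K enzymes receive the upstream signal, MAP2K enzymes phosphorylate the MAP kinases on a threonine and a tyrosine, and MAPKAPK enzymes are among the substrates. Dusp phosphatases of the MAP kinase phosphatase class remove both phosphates, and several of them are themselves transcribed in response to the pathway. In haematopoietic progenitors the cascade carries signals of cytokines such as interleukin-3. Transcript ratios do not measure phosphorylation, by which the cascade mainly works.

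The RNA came from FDCPmix cells, a mouse haematopoietic progenitor line whose growth depends on interleukin-3. The sample names add ES cell line, a term that is not explained. Each of 19 2-colour arrays paired the RNA of treated cells, called its own RNA, with a reference RNA. On 4 arrays the cells were treated, with no time given, and the reference came from non-treated FDCPmix cells. On the other 15 arrays the cells were taken 3 h (4 arrays), 7 h (4 arrays), 12 h (4 arrays) or 23 h (3 arrays; replicates 1, 3 and 4) after tamoxifen, which binds the oestrogen receptor, and the reference was treated cells at 0 h. No vehicle control, dose, transgene or genotype is stated, so both RNAs of a time-course array come from treated cells. Replicates 1 and 2 carried the own RNA in Cy5 and replicates 3 and 4 in Cy3. Nothing says that the replicates were separate cultures, so p-values measure the spread between these arrays that remains after a dye term, which may be technical. Each SE and p-value thus leaves out the difference between the dye orientations. In bulk RNA, fewer cells that express a gene and less RNA per cell cannot be told apart.

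Every value below is a deposited log ratio, read as log2 of own RNA over reference after centring each array on its median. The base and the numerator are assumed, so above 0 means higher in the own RNA under that reading only. Log ratios hold no level, so which of these genes the cells expressed, and whether markers of progenitors or of other cell types were present, could not be checked. Of 9 progenitor markers measured, 0 passed the test in any comparison, and neither did any of the 7 embryonic stem cell, 10 fibroblast, 4 erythroid or 3 lymphoid markers. At an unadjusted p under 0.05 there were at most 2 genes of any of these lists in a comparison. Without the 2 doubtful arrays named below, 3 progenitor markers were called for the mean of the times (Csf2rb, Mpo and Tal1, 1 of them higher), among 342 of 15983 features. Csf2rb and Tal1 were also called at 7 h, among 77 of 16116 features, and Mpo at 23 h, among 59 of 16041. At 7 h Csf2rb read -0.20, -0.37, -0.49 and 0.83, and at 23 h Mpo read -0.90, 0.88 and -0.92, so the omitted arrays were those on the other side. No gene of the other marker lists was called there. The treated arrays were the most variable: the SD over spots was 0.619 to 0.642 there and 0.235 to 0.36 on the time-course arrays. Doubt attaches to 7 h replicate 4 and to 23 h replicate 3. The first carries a repeated extreme value with the sign opposite to its dye. The second carries one whose sign matches its dye, but it had a deposited median of 0.233 and runs against its group, a trait seen only in its outcome. Among the 29 members with both other 23 h arrays on 1 side of 0, 23 h replicate 3 lay on the opposite side for 19, against 63.7% of all such features. For 7 h replicate 4 this held for 9 of 12 members, against 56% of all such features. Whether the signs of these arrays are right was not tested, and calls that depend on them are given with and without them. As 23 h replicate 3 was doubted from its outcome, calls made without it are not independent of that choice.

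No gene of the cascade passed the test in any comparison. The test was limma's moderated test with Benjamini-Hochberg adjustment over all features, at an adjusted p under 0.05, and all 49 members were tested each time. The share of all features called was 0% for the treated arrays, 3 h, 7 h, 23 h, the mean of the 4 times and the difference among the times, and 0.0186% at 12 h (3 of 16089). The smallest adjusted p among the members was 0.792 for the treated arrays, 0.425 at 3 h, 0.395 at 7 h, 0.604 at 12 h, 1 at 23 h, 0.568 for the mean of the times and 0.755 for their difference. These adjusted p-values are from limma. At an unadjusted p under 0.05 there were 4 members (8.16%) on the treated arrays, against 6.21% of all features, and 7 members (14.3%) at 3 h, against 10.8%. There were 2 members (4.08%) at 7 h against 7.04%, 3 (6.12%) at 12 h against 6.25% and 1 (2.04%) at 23 h against 3.35%. For the mean of the times there were 3 members (6.12%) against 7.2%, and for the difference among them 3 (6.12%) against 6.54%. In each comparison the members' share was thus within a few percentage points of that of all features. On 1 side of 0 on every array lay 4 members (8.16%) in the treated group against 13.4% of all features, 13 (26.5%) at 3 h against 21.5%, and 3 (6.12%) at 7 h against 12.5%. At 12 h there were 9 such members (18.4%) against 14.5%, and at 23 h, with 3 arrays, 10 (20.4%) against 19.3%.

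**Figure D1:**
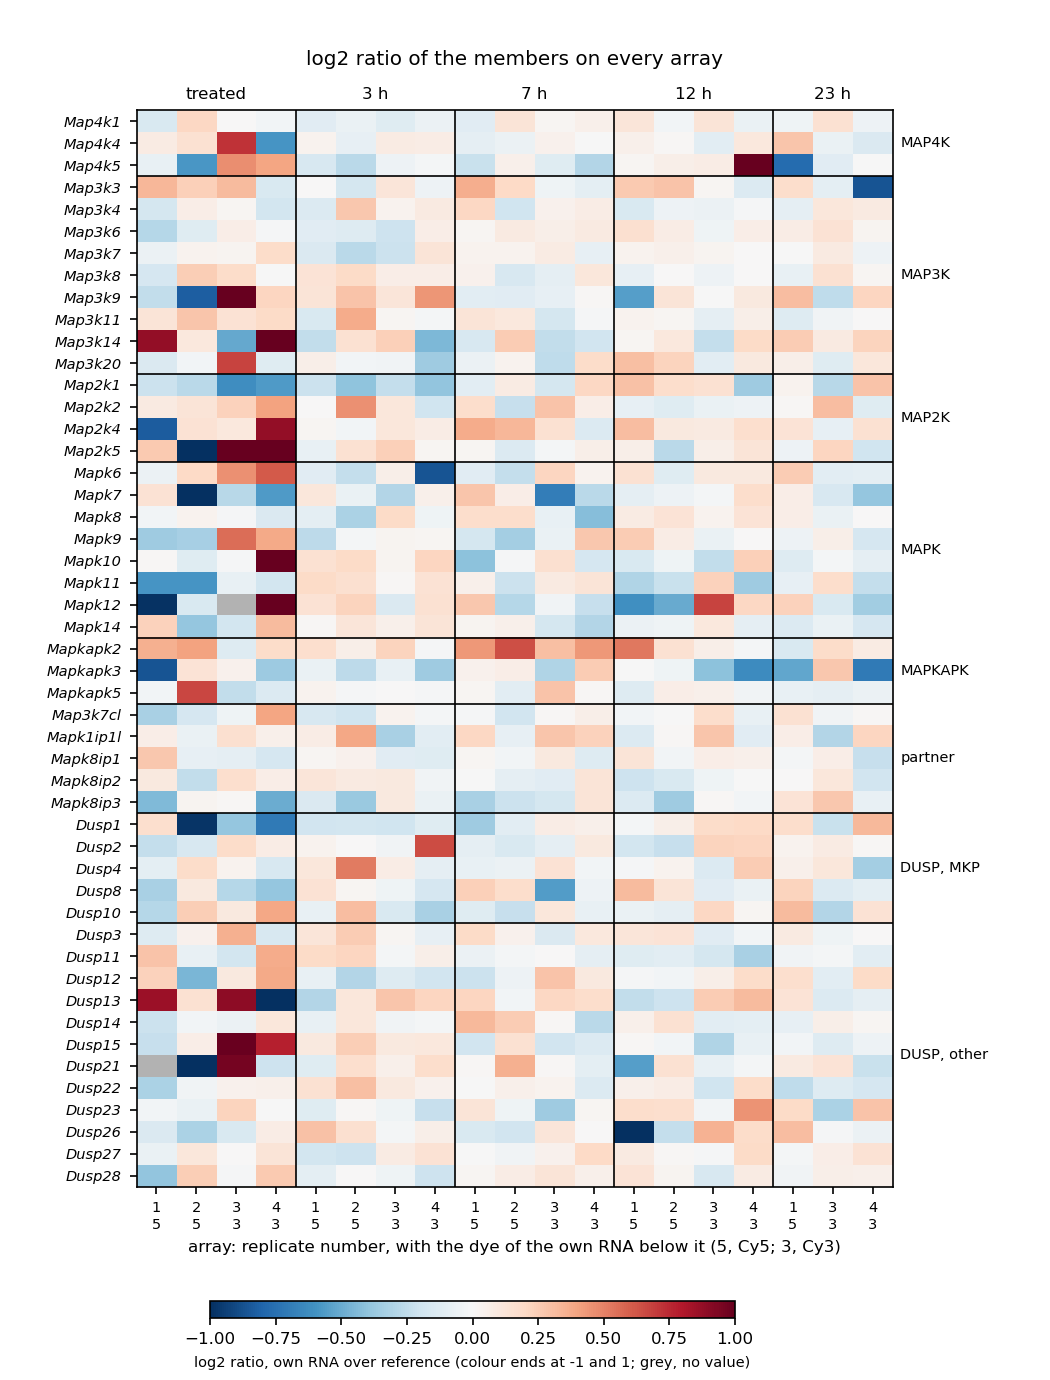
Log2 ratio (own RNA over reference) of the 49 members, in rows by tier, on the 19 arrays, in columns by group and replicate, with the dye of the own RNA under each column; colour runs from -1 to 1. The treated columns hold the strongest colours in both directions, and few rows keep 1 colour through all arrays of a group.

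The size of the values matched the spread of the arrays. The median SD of a member between arrays was 0.27 in the treated group, 0.13 at 3 h, 0.16 at 7 h, 0.13 at 12 h and 0.15 at 23 h, close to the medians over all features of 0.30, 0.15, 0.16, 0.15 and 0.15. On the treated arrays 5 members had an SD over 1, against 9.21% of all features, and at the times 0 members did. Dusp13, an atypical phosphatase, had the largest, with values of 0.85, 0.15, 0.90 and -4.62 on treated replicates 1 to 4. Map3k9, a mixed-lineage kinase, read -0.24, -0.83, 4.81 and 0.22 there. In both genes 1 array of the 4 stood far from the other 3, and the fitted value changed side without it, from -0.68 to 0.70 for Dusp13 and from 0.99 to -0.16 for Map3k9. For 26 of the 49 members on the treated arrays there was an array whose omission turned the sign of the fitted value; such members numbered 12 at 3 h, 26 at 7 h, 22 at 12 h and 32 at 23 h. Over the 15 time-course arrays the steadiest member was Map4k1, a haematopoietic MAP4K, with an SD of 0.097, and Map4k5 was the most variable.

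The sequences just before the start sites of 4 members are shown because these genes return in the comparisons below: Map2k1, lowest of its tier on the treated arrays and at 3 h, Map2k4 and Mapkapk3, which were called when both doubtful arrays were left out, and Dusp1, whose phosphatase is an immediate-early product. Each is the 250 bases upstream of the RefSeq start on GRCm38.p6, read 5′ to 3′ on the gene's strand, with TGACG on either strand in capitals. TGACG is the core of the cAMP response element TGACGTCA, bound by CREB and ATF factors.
Map2k1, chr9:64253606-64253855, minus strand: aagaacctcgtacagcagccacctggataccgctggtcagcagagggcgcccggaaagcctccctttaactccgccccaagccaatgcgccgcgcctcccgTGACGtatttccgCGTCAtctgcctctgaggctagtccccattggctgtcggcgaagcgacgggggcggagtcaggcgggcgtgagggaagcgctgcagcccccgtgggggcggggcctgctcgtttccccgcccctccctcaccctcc
Map2k4, chr11:65788360-65788609, minus strand: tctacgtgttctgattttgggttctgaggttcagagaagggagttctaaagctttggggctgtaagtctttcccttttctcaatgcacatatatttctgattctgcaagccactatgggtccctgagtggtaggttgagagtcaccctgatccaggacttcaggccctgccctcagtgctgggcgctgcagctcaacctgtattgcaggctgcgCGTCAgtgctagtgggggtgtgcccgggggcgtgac
Mapkapk3, chr9:107289878-107290127, minus strand: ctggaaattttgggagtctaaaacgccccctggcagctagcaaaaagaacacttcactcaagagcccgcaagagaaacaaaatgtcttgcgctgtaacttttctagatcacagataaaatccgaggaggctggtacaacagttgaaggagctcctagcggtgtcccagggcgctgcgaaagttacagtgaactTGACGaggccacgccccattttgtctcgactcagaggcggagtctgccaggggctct
Dusp1, chr17:26508473-26508722, minus strand: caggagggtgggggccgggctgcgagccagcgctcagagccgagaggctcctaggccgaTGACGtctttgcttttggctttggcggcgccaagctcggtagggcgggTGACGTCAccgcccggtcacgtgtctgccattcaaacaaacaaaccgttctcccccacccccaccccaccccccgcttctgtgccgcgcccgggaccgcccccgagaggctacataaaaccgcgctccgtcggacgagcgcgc
For these genes and Mapkapk2, windows that lie inside their own gene are not shown: the only window of Mapkapk2 and a second window each of Map2k4 and Mapkapk3, none of which holds TGACG. In Dusp1 the stretch TGACGTCA holds 2 overlapping matches on opposite strands. Of the 49 members, 41 had a RefSeq window, 53 windows in all, since some genes have several starts. TGACG on either strand was found in 18 of the 53 windows (34.0%) and in 17.8% of all 32851 windows of this length. The full TGACGTCA was in 3 windows (5.66%), those of Dusp1, Dusp8 and Mapk10, against 1.55% of all. The GC box GGGCGG, which contains no TGACG, was in 29 windows (54.7%) against 32.7%. The AP-1 motif TGANTCA was in 1 window (1.89%) against 6.75%, and the STAT motif TTCNNNGAA in 3 (5.66%) against 7.02%. The palindromic oestrogen response element was in 0 of the 53 windows, against 0.0639% of all. These letters describe the windows and do not show binding.

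In the top tier, Map4k1, Map4k4 and Map4k5 are kinases of the Ste20 group. All 3 lay above 0 on the treated arrays, with a median of 0.05 and a range from 0.01 (Map4k1) to 0.09 (Map4k4), against a median of 0.01 over all features. At 3 h and 7 h 1 of the 3 was above 0 (medians -0.09 and -0.03), at 12 h 3 of 3 (median 0.04) and at 23 h 2 of 3 (median 0.02). Map4k5 had the tier's largest values at the times. Its arrays read 0.02, 0.06, 0.07 and 1.34 at 12 h, for a mean of 0.37 (SE 0.16, n = 4, limma adjusted p = 0.784). They read -0.77, -0.11 and -0.00 at 23 h, for a fitted value of -0.35 (SE 0.19, n = 3, limma adjusted p = 0.9997). All 4 arrays at 12 h were above 0 and all 3 at 23 h below it, but 1 array carried each value. Without 12 h replicate 4 the dye-adjusted fitted value at 12 h was 0.08, and without 23 h replicate 1 that at 23 h was -0.18. On the other arrays Map4k5 read -0.07, -0.59, 0.46 and 0.40 (treated), -0.16, -0.27, -0.05 and -0.02 (3 h) and -0.22, 0.05, -0.12 and -0.30 (7 h). Its 3 probes did not move together, since at 12 h they averaged -0.01, 0.11 and 1.01 and at 23 h -0.88, -0.00 and 0.

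The median of the 9 MAP3K genes stayed near 0 at every time. Map3k7 encodes TAK1, a kinase of the JNK, p38 and NF-kappaB routes, Map3k8 encodes Tpl2, upstream of ERK, Map3k11 is a mixed-lineage kinase and Map3k14 encodes NIK of the noncanonical NF-kappaB route. In the treated group 7 of the 9 were above 0 (median 0.10), from -0.09 for Map3k6 to 0.99 for Map3k9, the gene carried by treated replicate 3. The counts above 0 were 4 at 3 h (median -0.03), 5 at 7 h (median 0.01), 6 at 12 h (median 0.02) and 7 at 23 h (median 0.03). The lowest values at the times were -0.12 for Map3k7 at 3 h and -0.22 for Map3k3 at 23 h, and the highest were 0.25 for Map3k9 at 3 h and 0.21 for Map3k14 at 23 h. Map3k3 read 0.18, -0.10 and -0.86 at 23 h, and its 2 probes averaged -0.49 and -0.03 there. Map3k9 read 0.13, 0.29, 0.12 and 0.445 at 3 h. Map3k11 was above 0 on all 4 treated arrays, at 0.18 on average (SD 0.067, n = 4), the smallest spread of any member there. In no group did the tier's median exceed the median SD between arrays.

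In the MAP2K tier, 3 of 4 genes were above 0 on the treated arrays, at 3 h, 7 h and 23 h and 2 of 4 at 12 h, with medians of 0.14, 0.07, 0.04, 0.05 and 0.03. The medians were -0.26 on the treated arrays, -0.027 at 7 h and -0.013 at 23 h, each with 1 of 4 above 0, when the sign of every Cy3 array was changed. Under the deposited signs the exception on the treated arrays and at 3 h was Map2k1, which encodes MEK1, a kinase that activates the ERK kinases. Map2k1 read -0.22, -0.27, -0.62 and -0.56 on treated replicates 1 to 4, for a mean of -0.42 (SE 0.095, n = 4, unadjusted p = 0.0119 and adjusted p = 0.792, limma). At 3 h it read -0.21, -0.40, -0.24 and -0.40, for a mean of -0.31 (SE 0.10, n = 4, unadjusted p = 0.0106 and adjusted p = 0.425, limma). All 8 of these arrays were below 0, in both dye orientations, so that with the sign of every Cy3 array changed the value was 0.175 on the treated arrays and 0.0055 at 3 h. At 7 h the arrays read -0.11, 0.08, -0.17 and 0.205, at 12 h 0.29, 0.18, 0.16 and -0.35, and at 23 h 0.04, -0.28 and 0.28, so that 0 lay inside each of these groups. The difference among the 4 times reached an unadjusted p of 0.0869 (limma adjusted p = 0.759). Map2k1 and the p38 gene Mapk11 were below 0 on every treated array, 2 of the 4 that kept 1 side there. When the treated arrays shared 1 spread with the time course, Map2k1 (adjusted p = 0.0310) and Mapk11 (adjusted p = 0.0466) passed limma's test. They were 2 of 49 members, among 758 of 15915 features called. The treated arrays were the more variable, so a shared spread can understate their error over all features. For these 2 genes the SE was 0.102 and 0.097 in that fit, against 0.095 and 0.096 with the treated arrays alone.

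Map2k4 encodes MKK4, which activates JNK and p38. It read 0.02, -0.02, 0.12 and 0.07 at 3 h, 0.37, 0.33, 0.15 and -0.14 at 7 h, 0.31, 0.09, 0.09 and 0.17 at 12 h, and 0.14, -0.08 and 0.15 at 23 h. It was above 0 on 12 of the 15 arrays, and 2 of the 3 exceptions were the doubtful arrays 7 h replicate 4 and 23 h replicate 3. Its mean over the times was 0.12 (SE 0.038, 15 arrays, unadjusted p = 0.00744 and adjusted p = 0.643, limma). Without both doubtful arrays it was 0.16 (limma adjusted p = 0.0266), a call made among 342 of 15983 features in that fit. At 7 h the value was 0.18 (SE 0.072, n = 4, limma adjusted p = 0.676) and 0.28 without replicate 4. Its 2 probes averaged 0.083 and 0.28 at 7 h and 0.15 and 0.18 at 12 h. Map2k4 ran from -0.83 to 0.88 on the treated arrays, with 0.15 and 0.11 between. Map2k2, which encodes MEK2, read 0.09, 0.13, 0.23 and 0.41 there, above 0 on all 4 arrays while Map2k1 was below 0 on all 4. Its mean was 0.21 (SE 0.10, n = 4, limma adjusted p = 0.803). At the times Map2k2 read 0.00, 0.46, 0.11 and -0.20 (3 h), 0.17, -0.23, 0.28 and 0.07 (7 h), -0.08, -0.12, -0.06 and -0.05 (12 h) and 0.01, 0.31 and -0.12 (23 h). The difference between Map2k1 and Map2k2 was not tested. Map2k5, the kinase of ERK5, had a mean of 0.40 on the treated arrays with an SD of 1.17 (n = 4). Its dye-adjusted fitted value there was 0.04 without replicate 1 and 0.76 without replicate 2. These are midpoints of the 2 dye orientations, not means of the arrays left. At the times the fitted values of Map2k5 stayed between -0.03 and 0.08.

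**Figure D2:**
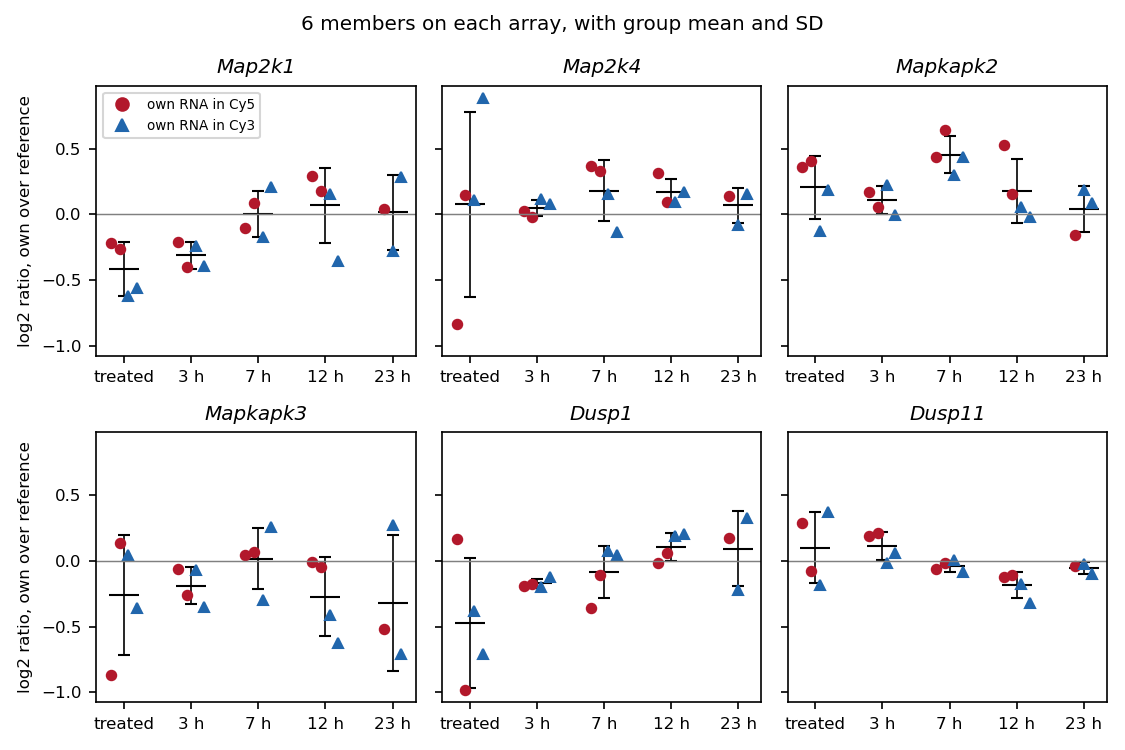
Log2 ratio (own RNA over reference) of Map2k1, Map2k4, Mapkapk2, Mapkapk3, Dusp1 and Dusp11 on each array, by group; circles have the own RNA in Cy5, triangles in Cy3, and bars show the group mean and SD. Map2k1 lies below 0 on all treated and 3 h arrays, and Mapkapk2 above 0 on all 7 h arrays.

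The MAP kinases themselves moved little. Of the 8, 4 were above 0 on the treated arrays (median 0.03), from -0.46 for Mapk7, which encodes ERK5, to 0.77 for Mapk12, a p38 gene. The 3 values of Mapk12 there were -0.99, -0.15 and 2.11, with an array mean of 0.32, and the fitted value was -0.57 without replicate 4. The 0.77 is the midpoint of the dye orientations, with Cy3 given by replicate 4 alone. At 3 h 4 of 8 were above 0 (median 0.02), at 7 h 1 of 8 (median -0.07), at 12 h 4 of 8 (median -0.01) and at 23 h 2 of 8 (median -0.08). The lowest and highest were Mapk6 (-0.29) and Mapk10 (0.15) at 3 h, Mapk7 (-0.16) and Mapk11 (0.01) at 7 h, Mapk11 (-0.16) and Mapk8 (0.10) at 12 h and Mapk7 (-0.12) and Mapk6 (0.02) at 23 h. At 7 h 49.4% of all features were above 0, and 50.5% at 23 h. Those medians lie within the median SD of a member between arrays. With the sign of every Cy3 array changed the 23 h median was 0.03, with 6 of 8 above 0.

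Mapk14, the main p38 gene, read 0.01, 0.12, 0.05 and 0.13 at 3 h, above 0 on all 4 arrays, and -0.14, -0.07 and -0.17 at 23 h, below 0 on all 3. In between it read 0.03, 0.05, -0.17 and -0.29 at 7 h and -0.06, -0.04, 0.11 and -0.09 at 12 h. The fitted values were 0.078 at 3 h (SE 0.060, n = 4, limma adjusted p = 0.619) and -0.12 at 23 h (SE 0.070, n = 3, limma adjusted p = 0.9997). At 7 h the value was -0.10, and -0.03 without replicate 4. Treated replicates 1 to 4 read 0.23, -0.39, -0.19 and 0.32, with a mean of -0.01. Mapk8, which encodes JNK1, had the narrowest treated values of the tier, -0.03, 0.04, -0.01 and -0.14. It read -0.10, -0.32, 0.20 and -0.04 at 3 h, 0.17, 0.17, -0.07 and -0.42 at 7 h, 0.08, 0.14, 0.04 and 0.13 at 12 h, and 0.07, -0.07 and 0.01 at 23 h. Only at 12 h did its arrays share a side, at a mean of 0.10 (SE 0.093, n = 4, limma adjusted p = 0.980). The other JNK genes, Mapk9 and Mapk10, had fitted means over the times of -0.04 and -0.03.

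Mapk11, the p38 beta gene, read -0.59, -0.59, -0.07 and -0.19 on the treated arrays, for a mean of -0.36 (SE 0.096, n = 4, unadjusted p = 0.0206 and adjusted p = 0.793, limma). The values with the own RNA in Cy5 were the lower ones. At 3 h it read 0.19, 0.16, 0.01 and 0.14, the opposite side, and at the later times it took both signs, with 0.05, -0.21, 0.09 and 0.13 at 7 h, -0.30, -0.22, 0.23 and -0.35 at 12 h and -0.08, 0.18 and -0.24 at 23 h. Mapk6, which encodes the atypical kinase ERK3, read -0.06, 0.20, 0.46 and 0.61 on the treated arrays (mean 0.30, SE 0.11, n = 4, limma adjusted p = 0.793). At 3 h it read -0.12, -0.24, 0.06 and -0.87, so replicate 4 gave most of the mean of -0.29. Without replicate 4 the fitted value of Mapk6 was -0.08. At 7 h it read -0.11, -0.24, 0.22 and 0.04, at 12 h 0.15, -0.12, 0.10 and 0.10, and at 23 h 0.25, -0.10 and -0.10.

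Below the MAP kinases, Mapkapk2 had the smallest p of any member. It encodes MK2, a substrate of p38 that acts on the stability of cytokine mRNAs. At 7 h it read 0.44, 0.64, 0.30 and 0.43, above 0 on all 4 arrays, and both dyes gave a mean on that side (0.54 in Cy5 and 0.37 in Cy3). The mean at 7 h was 0.45 (SE 0.086, n = 4, unadjusted p = 0.000149 and adjusted p = 0.395, limma), rank 3 of the 16087 features by p. Leaving out 1 of the 15 arrays at a time kept the fitted value between 0.40 and 0.50, with limma adjusted p from 0.152 to 0.694. It was 0.0865 (limma adjusted p = 0.911) with the sign of every Cy3 array changed, and the mean over the times was then 0.044. It read 0.17, 0.06, 0.22 and -0.01 at 3 h, 0.53, 0.15, 0.06 and -0.02 at 12 h, and -0.16, 0.18 and 0.08 at 23 h. The 7 h arrays were higher than all arrays of the other times except 12 h replicate 1. The mean over the times was 0.20 (SE 0.045, 15 arrays, 12 of them above 0, unadjusted p = 0.000689 and adjusted p = 0.568, limma), rank 12 of 16024 features. The fitted values spanned 0.40 across the 4 times (unadjusted p = 0.0313 and adjusted p = 0.755, limma). Without 12 h replicate 1 the fitted value at 12 h fell from 0.18 to 0.07. The treated arrays read 0.36, 0.40, -0.13 and 0.18.

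Mapkapk3, which encodes the related kinase MK3, lay on the other side. It read -0.07, -0.26, -0.07 and -0.35 at 3 h and -0.01, -0.04, -0.41 and -0.63 at 12 h, below 0 on all 8 arrays. At 7 h it read 0.04, 0.07, -0.30 and 0.26, and at 23 h -0.52, 0.27 and -0.71. The positive values of 0.26 and 0.27 came from the 2 doubtful arrays, 7 h replicate 4 and 23 h replicate 3. The mean over the times was -0.19 (SE 0.075, 15 arrays, 11 of them below 0, unadjusted p = 0.0271 and adjusted p = 0.661, limma). Without both doubtful arrays it was -0.30 (limma adjusted p = 0.00503), and the 23 h value went from -0.30 to -0.61 (limma adjusted p = 0.0431). In that fit 342 of 15983 features were called for the mean and 59 of 16041 at 23 h. Without 23 h replicate 1 the 23 h value was -0.12. With the sign of every Cy3 array changed the mean over the times was 0.06, and 0.15 when the doubtful arrays were also left out. In the treated group Mapkapk3 read -0.87, 0.13, 0.04 and -0.36. Mapkapk5, also called PRAK, ran between -0.08 and 0.05 in the fit over the times.

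The binding partners and scaffolds include the JNK-interacting proteins, which hold the JNK cascade together. Of the 5, 2 were above 0 on the treated arrays and at 3 h, 1 at 7 h and 3 at 12 h and 23 h, with medians from -0.04 at 3 h to 0.01 at 12 h. Mapk8ip3, which encodes JIP3, was the lowest on the treated arrays, 3 h, 7 h and 12 h. It read -0.14, -0.37, 0.10 and -0.07 at 3 h, -0.33, -0.21, -0.17 and 0.13 at 7 h, -0.14, -0.36, 0.01 and -0.03 at 12 h and 0.14, 0.27 and -0.07 at 23 h. The Cy5 arrays averaged -0.20 and the Cy3 arrays 0.02 over the times, so its fitted mean of -0.08 (SE 0.040, 15 arrays, limma adjusted p = 0.714) rested on 1 orientation. Its treated arrays read -0.44, 0.03, 0.01 and -0.50. The 2 probes of Mapk8ip1, which encodes JIP1, lay on opposite sides of 0 in all 5 groups, whereas those of Mapk8ip2 lay on the same side in all 5.

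**Figure D3:**
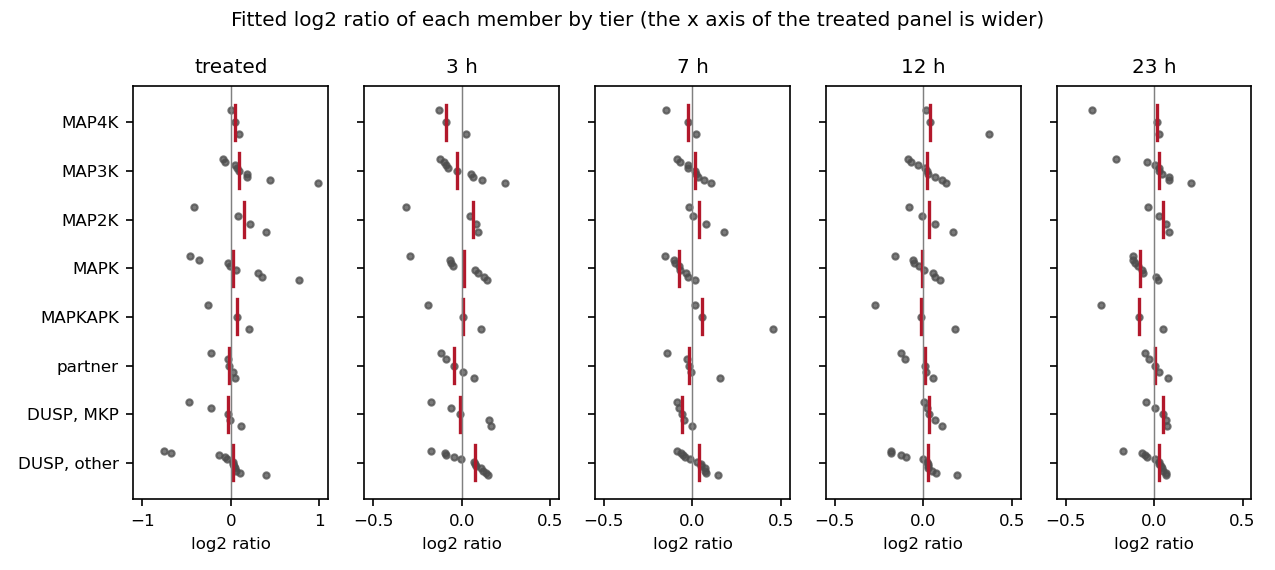
Fitted log2 ratio (own RNA over reference) of each member, in rows by tier, for the treated arrays and the 4 times. The points of every tier scatter around 0, within about 0.5 at the times, and Mapkapk2 at 7 h is the farthest point to the right among the times.

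Among the MAP kinase phosphatases, Dusp1 encodes MKP-1, an immediate-early nuclear phosphatase of p38, JNK and ERK. It read 0.17, -0.98, -0.39 and -0.71 on the treated arrays (mean -0.48, SE 0.23, n = 4, limma adjusted p = 0.807), the lowest of this class but with replicate 1 on the other side. At 3 h it read -0.19, -0.18, -0.20 and -0.12, below 0 on all 4 arrays and with a narrow spread (mean -0.17, SE 0.082, SD 0.034, n = 4, unadjusted p = 0.0550 and adjusted p = 0.465, limma). At 7 h it read -0.36, -0.10, 0.07 and 0.05, at 12 h -0.02, 0.06, 0.19 and 0.20, and at 23 h 0.17, -0.23 and 0.33. The other members of the class were Dusp2 (PAC1, a phosphatase of haematopoietic cells), Dusp4, Dusp8 and Dusp10. Of all 5, 1 was above 0 on the treated arrays (median -0.03), 2 at 3 h (median -0.01), 0 at 7 h (median -0.06), 5 at 12 h (median 0.03) and 4 at 23 h (median 0.05). The 7 h values ran from -0.09 (Dusp1) to -0.00 (Dusp4) and the 12 h values from 0.01 (Dusp2) to 0.11 (Dusp1), all smaller than the median SD between arrays. With the sign of every Cy3 array changed the 12 h median was -0.09, with 1 of 5 above 0.

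The 12 other Dusp genes act on other phosphoproteins or RNA as well as on MAP kinases, and several have no settled substrate. Of them 7 were above 0 on the treated arrays, 3 h, 7 h and 12 h and 8 at 23 h, with medians of 0.03, 0.07, 0.04, 0.03 and 0.03. On the treated arrays the highest and lowest were Dusp15 (0.40) and Dusp21 (-0.76). Dusp21 had no value on replicate 1 and read -1.895, 0.96 and -0.21 on replicates 2 to 4, with an array mean of -0.38. Its fitted value is the midpoint of the 2 dye orientations, with Cy5 given by replicate 2 alone. At 3 h the highest and lowest were Dusp22 and Dusp12, and at 7 h Dusp13 and Dusp15 (0.14 and -0.09). At 12 h they were Dusp23 and Dusp11 (0.19 and -0.18), and at 23 h Dusp23 and Dusp22 (0.07 and -0.17). Dusp11, a phosphatase of RNA 5′ ends, read -0.12, -0.11, -0.18 and -0.33 at 12 h, for a mean of -0.18 (SE 0.047, n = 4, unadjusted p = 0.00205 and adjusted p = 0.604, limma), rank 50 of 16089 features. At 3 h it read 0.19, 0.21, -0.02 and 0.06 (mean 0.11, SE 0.047, n = 4, limma adjusted p = 0.457), and all of these were higher than every 12 h value. At 7 h it read -0.06, -0.02, 0.01 and -0.09 and at 23 h -0.04, -0.02 and -0.10. It had the smallest p among the members for the difference among the times (range of fitted values 0.29, unadjusted p = 0.00699 and adjusted p = 0.755, limma). Its treated arrays read 0.29, -0.08, -0.18 and 0.37.

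Dusp22, a small phosphatase also called JKAP that acts in the JNK route and in T cell signalling, read 0.15, 0.30, 0.09 and 0.04 at 3 h (mean 0.15, SE 0.063, n = 4, limma adjusted p = 0.455). At 23 h it read -0.25, -0.13 and -0.17 (fitted value -0.17, SE 0.073, n = 3, limma adjusted p = 0.9997), and -0.10 without replicate 1. The 2 times did not overlap. The difference among the 4 times had an unadjusted p of 0.0387 (limma adjusted p = 0.755). At 7 h Dusp22 read -0.00, 0.05, 0.04 and -0.14, at 12 h 0.05, 0.08, -0.20 and 0.18, and on the treated arrays -0.32, -0.03, 0.04 and 0.05. Dusp12 read -0.08, -0.30, -0.13 and -0.19 at 3 h (mean -0.17, SE 0.073, n = 4, limma adjusted p = 0.453), below 0 on all 4. At 7 h it read -0.22, -0.05, 0.28 and 0.09, at 12 h -0.01, -0.03, 0.06 and 0.18, at 23 h 0.17, -0.10 and 0.19, and on the treated arrays 0.23, -0.45, 0.10 and 0.38. Those groups each held values on both sides of 0. Dusp15 read -0.23, 0.07, 0.99 and 0.78 on the treated arrays (mean 0.40, SE 0.11, n = 4, limma adjusted p = 0.793), where both high arrays had the own RNA in Cy3. Its SD between those arrays was 0.58, most of which the dye term takes out of the SE. At 3 h it read 0.09, 0.24, 0.10 and 0.11, at 7 h -0.19, 0.15, -0.19 and -0.13, at 12 h 0.01, -0.03, -0.30 and -0.08, and at 23 h -0.03, -0.13 and -0.05. The 4 arrays at 3 h were thus above 0 and the 3 at 23 h below it.

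The 2 dye orientations often lay on opposite sides of 0. On the 15 time-course arrays the mean of the Cy5 arrays and that of the Cy3 arrays lay on opposite sides of 0 for 36 of the 49 members (73.5%), and for 56.5% of all features. On the treated arrays this held for 30 members (61.2%) and 52.6% of all features. Among the 13 members whose orientations shared a side at the times were Mapkapk2 (0.26 and 0.16), Map2k4 (0.18 and 0.067) and Mapkapk3 (-0.11 and -0.24). The dye term was called for 0 members. Dusp8 came closest, with arrays of the own RNA in Cy5 averaging 0.18 and those in Cy3 -0.15 over the times (limma adjusted p = 0.163).

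**Figure D4:**
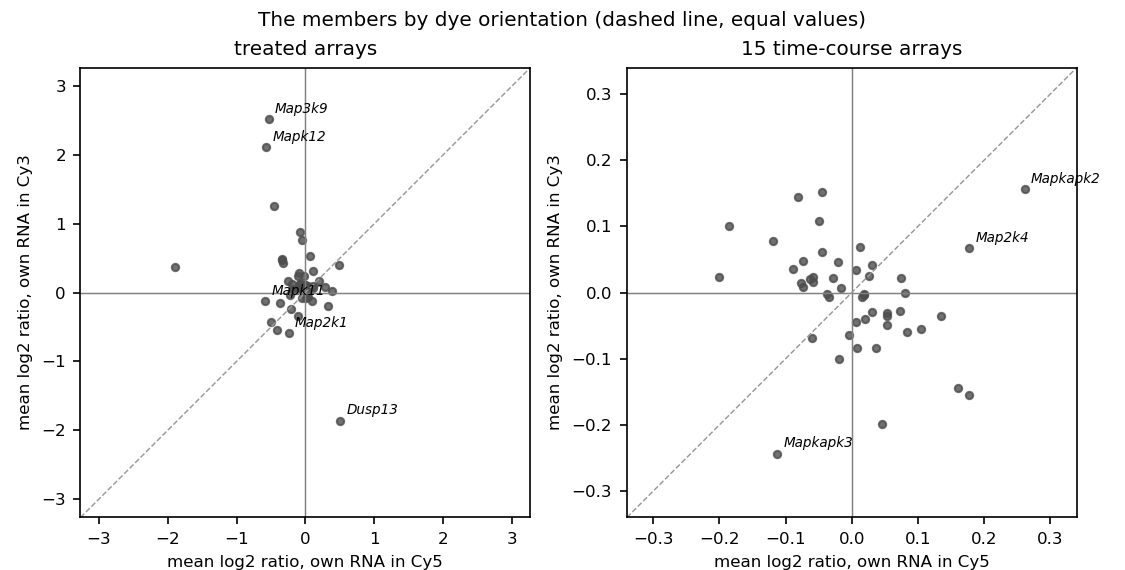
Mean log2 ratio (own RNA over reference) of each of the 49 members over the arrays with the own RNA in Cy5 (x axis) and in Cy3 (y axis), for the treated arrays and the 15 time-course arrays; the axes of the panels differ. Points to the upper left and lower right of the origin, 30 on the treated arrays and 36 at the times, have the orientations on opposite sides of 0.

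Probes of the same gene gave a further measure of error. Of the 49 members, 33 had 1 probe, 14 had 2 and 2 had 3. Among the 16 with several, the probes' group means lay on 1 side of 0 in 6 genes on the treated arrays, 9 at 3 h, 7 at 7 h, 10 at 12 h and 6 at 23 h. The largest gap was 1.02, in Map4k5 at 12 h.

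The neighbours of the cascade were followed in 4 lists, and with all arrays kept 0 of their measured genes passed limma's test with Benjamini-Hochberg adjustment in any comparison. At an unadjusted p under 0.05 at most 2 genes of each of the first 3 lists were found in a comparison. In the Ras and Raf input list, 11 of 18 genes were measured. Of these, 7 were above 0 on the treated arrays (median 0.40, against 0.01 over all features), from -0.47 for Rras to 0.84 for the kinase gene Araf. Araf read 0.28, -1.28, 0.12 and 4.23 on treated replicates 1 to 4, and its value was -0.19 without replicate 4. At the times the list's medians lay between -0.04 and 0.01. Over the times the highest was Rasa1, a GTPase activator that switches Ras off, at 0.18. Of the kinases downstream of MAP kinases, 3 of 8 were measured, and all 3 were above 0 on the treated arrays (median 0.13) and at 7 h (median 0.05), where 52.1% and 49.4% of all features were. At 3 h 1 of the 3 was above 0 (median -0.03), and at 12 h and 23 h 2 of the 3 (medians 0.0028 and 0.02). Of the Sprouty, Spred and other inhibitors, 7 of 14 were measured, and their medians were -0.07 on the treated arrays, -0.10 at 3 h, -0.02 at 7 h, -0.01 at 12 h and -0.01 at 23 h. The lowest of them was Spry2, a feedback inhibitor of ERK signalling, at -0.47 at 7 h, where 1 array read -1.35, and at -0.22 without that array.

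Of the immediate-early and ETS targets, 14 of 23 were measured. Of these, 11 were below 0 on the treated arrays (median -0.13) and 11 at 3 h (median -0.09), followed by 8 at 7 h (median -0.01), 9 at 12 h (median -0.03) and 8 at 23 h (median -0.06). The medians over all features lay between -0.00 and 0.01. At an unadjusted p under 0.05 there were 2 of the 14 on the treated arrays and 4 at 3 h, against 6.21% and 10.8% of all features. The lowest was Ier3, an immediate-early gene that is a target of ERK and of NF-kappaB. It read -0.60, -0.27, -0.68 and -0.80 on the treated arrays, -0.71, -0.55, -0.66 and -0.54 at 3 h, -0.73, -0.71, -0.72 and 0.78 at 7 h, -0.67, -0.30, -0.45 and -0.67 at 12 h, and -0.56, 0.55 and -0.69 at 23 h. It was below 0 on every array except 7 h replicate 4 and 23 h replicate 3, the 2 arrays in doubt, where its size was similar and its sign the opposite. Its mean was -0.59 on the treated arrays (SE 0.11, n = 4, limma adjusted p = 0.792) and -0.44 over the times (SE 0.12, 15 arrays, limma adjusted p = 0.568). Without both doubtful arrays the mean over the times was -0.62 (SE 0.038, limma adjusted p = 2.13e-05), and the values at 3 h, 7 h, 12 h and 23 h were -0.61, -0.72, -0.52 and -0.62 (limma adjusted p from 0.0032 to 0.01965). The arrays left out are those with Ier3 above 0. Because 23 h replicate 3 was doubted for running against its group, these p-values are not independent of that choice. The mean of Ier3 over the times was -0.16 and its treated value 0.15 with all arrays kept and the sign of every Cy3 array changed. Without both doubtful arrays Junb, which encodes an AP-1 subunit, was also called lower in this list for the mean of the times, and Rasa1 was called higher in the Ras and Raf input list. The other 2 lists had 0 calls there. The treated arrays and the time course have different reference RNAs, whereas the 4 times share the 0 h reference, so their values are not independent of each other.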

How the data were processed

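The labels' protocols state that RNA of the 19 FDCPmix samples was copied into cDNA and coupled to Cy3 or Cy5; they also mention organs and control animals that a cell line does not have. The authors deposited 1 log ratio per probe, taken here as log2. The sources used here give neither base, numerator nor normalization. The number of arrays limits the precision. The deposited signs were kept, as the own RNA over the reference.

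Each array was centred on its median, an extreme value beyond 10 in size that was repeated on at least 2 spots was set to missing, and the probes of a gene were averaged, giving 16148 features (13891 probes had 1 gene symbol, 5 several and 6309 none). A feature needed values on 3 arrays of a group of 4, or 2 of the group of 3. Tests were limma 3.58.1 (R 4.3.3; lmFit and eBayes) with a dye term and Benjamini-Hochberg adjustment over all features tested, with the 4 treated arrays fitted alone and the 15 time-course arrays together. The ratio against 0 leaves out the reference's own spread. The code was tested on simulated data.

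The members, the lists and the arrays in doubt were chosen with earlier results of these data known. Named genes were the 4 members with the smallest p in each comparison, those fixed by name (Mapk14, Mapk8, Map2k1, Map2k2, Mapkapk2, Dusp1 and, without a probe, Mapk3 and Dusp6), each tier's highest and lowest, and each list's extremes; Dusp13, Map3k9 and Map4k1 were named for their spread after their values were seen, as were others given in passing. The alternatives covered the arrays in the fit, array weights, signs, dye term, replicate block, centring, scaling, quantile normalization, extreme values, probe summary, missing values and single arrays left out. Identical values made up at most 0.289% in any pair of arrays.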

Additional observations from a re-analysis of the deposited data

Results flagged for a closer look

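In 9 of the 194 sets of 4 arrays tested (4.64%), 1 array stood apart from the other 3 by Dixon's criterion, which chance meets in about 1 of 20 sets. On the treated arrays these were Dusp13 at -4.62 on replicate 4 (others 0.15 to 0.90), Mapk10, a JNK gene, at 1.53 on replicate 4 (others -0.12 to 0.01) and Map3k20, the stress kinase ZAK, at 0.68 on replicate 3 (others -0.15 to -0.03). At 3 h they were Dusp15 at 0.24 on replicate 2 (others 0.09 to 0.11), Dusp2 at 0.65 on replicate 4 (others -0.04 to 0.04) and Mapk9, a JNK gene, at -0.26 on replicate 1 (others -0.02 to 0.03). At 7 h they were Dusp13 at -0.028 (others 0.18 to 0.21) and Dusp15 at 0.15 (others -0.19 to -0.13), both on replicate 2. At 12 h Map4k5 stood at 1.34 on replicate 4 (others 0.02 to 0.07). They fell on 7 different arrays.

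For Dusp15, Dusp22, Mapk10, Mapk14 and Map4k5, all arrays of 1 time lay above 0 and all arrays of another below it. The share of all features that did so was not computed, so the list describes these genes only. At single times, 21.5% (3 h), 14.5% (12 h) and 19.3% (23 h) of all features kept 1 side of 0 on every array. The 23 h mean was lower than the 3 h mean by a difference of -0.20 for Dusp15, -0.33 for Dusp22, -0.22 for Mapk10 and -0.20 for Mapk14. Map4k5 went from 3 h to 12 h by 0.50 and from 12 h to 23 h by -0.67, values that rest on 12 h replicate 4 and 23 h replicate 1. These pairwise differences were not tested. Of the test across the 4 times, 0 members passed limma's adjusted threshold.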

How the results depend on the processing

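No member was called under most alternatives, and the 4 members with the smallest p in each comparison kept their side of the threshold, and their direction, when any 1 array was left out. With all 19 arrays in 1 fit, 758 of 15915 features and 2 of 49 members were called on the treated arrays. That fit shares 1 spread between the treated arrays and the less variable time course. With both doubtful arrays left out, 59 of 16041 features and 1 of 49 members were called at 23 h. For the mean of the times 342 of 15983 features and 2 of 49 members were called. Features called were 16 at 3 h, 77 at 7 h, 40 at 12 h and 7 for the difference among the times. With the sign of 7 h replicate 4 changed, these were 19 at 3 h, 77 at 7 h, 101 for the mean and 4 for the difference. With the sign of 23 h replicate 3 changed too, a setting chosen after the data were seen, they were 28 at 3 h, 60 at 12 h, 128 at 23 h and 20 for the difference. At 7 h there were then 202 of 16087 features and 1 of 49 members (Map2k4). For the mean there were 535 of 16024 features and 2 of 49 members, Map2k4 at 0.15 and Mapkapk3 at -0.26. With the Cy3 signs changed there were 2 features for the mean and 1 for the difference, and with the doubtful arrays also left out (added after the data were seen) 2 at 3 h, 4 at 7 h, 38 for the mean and 1 for the difference; no member was called under either. At 12 h, 3 features were called, 9 with array weights and 0 with extreme values kept or with values required on every array. Quantile normalization gave 1 for the difference. The causes were not tested.

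Leaving out 1 array at a time gave 0 members throughout. Features called ranged from 0 to 8 at 3 h, 0 to 12 at 7 h, 0 to 10 at 12 h, 0 to 1 at 23 h, 0 to 65 for the mean and 0 to 6 for the difference. The highest were without 7 h replicate 4 at 3 h, at 7 h and for the mean, without 12 h replicate 3 at 12 h and without 12 h replicate 2 for the difference.

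With the Cy3 signs changed, these values reversed: Dusp15 (-0.48), Map2k1 (0.17) and Mapk6 (-0.23) on the treated arrays, Map2k1 at 3 h (0.0055), Mapk14 at 7 h (0.14), Dusp11 (0.069) and Map4k5 (-0.34) at 12 h, Dusp22 (0.018) and Mapk14 (0.023) at 23 h, and Mapkapk3 over the times (0.055). With the doubtful arrays also left out, Map2k1 at 3 h (0.0055), Mapk14 at 7 h (0.090) and 23 h (0.0165), Dusp11 (0.069) and Map4k5 (-0.34) at 12 h, and Mapkapk3 at 23 h (0.10) and over the times (0.15) reversed. Mapk14 at 7 h was 0.050 with the sign of 7 h replicate 4 changed, whether or not that of 23 h replicate 3 was changed too. Map4k5 at 23 h was 0.015 with the median over its 3 probes.

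Whether the replicate numbers pair the samples could not be settled, since same-numbered arrays always share a dye. After removal of group means and dye, same-numbered arrays correlated at -0.12 on average, with 0 of 21 pairs over 0.1. Differently numbered arrays of the same dye correlated at -0.10, also with 0 of 21. With only group means removed the averages were 0.03 (3 of 21 over 0.1) and 0.05 (5 of 21). Same-numbered arrays were thus not more alike than others of the same dye. With the replicate block, 606 features were called on the treated arrays, fitted there with all arrays and so with the shared spread. At 12 h 3 were called, and no member was called in any comparison.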
